A study of Mus musculus with 11 samples.

Results

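The mRNA levels of 40 regulators of autophagy and of the lysosome were examined in colonic epithelial cells of mice that were fed with or without cellulose and then exposed to dextran sulfate sodium (DSS), a chemical that injures the colonic epithelium. The genes were taken by their symbols from the count table, which lists 52550 genes, and all 40 were found and measured. They cover the start of autophagy, the phosphatidylinositol 3-kinase (PI3K) complex, the lipid transfer proteins, the conjugation machinery, the ATG8 proteins, the cargo receptors, the TFEB family and the lysosomal membrane. All mice were RAG1 KO on the C57BL/6 strain and so lacked mature T and B cells, also in the control group. CD mice (n = 5) received a purified diet with cellulose and FFD mice (n = 6) a fiber-free diet, in both cases for 4 weeks, and all mice of both groups then drank DSS for 5 days. No mice without DSS and no mice with mature T and B cells were part of the comparison, and the age of the mice was not given in the labels. RNA was sequenced in 1 library per mouse, and total counts ranged from 20853535 to 28588266 in CD mice and from 10374154 to 27973285 in FFD mice. FFD mouse 4 had the lowest total. The least abundant value of any member in any library was a count of 39.

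Autophagy encloses pieces of cytoplasm in a membrane and delivers them to the lysosome, where acid hydrolases break them down. A kinase complex around ULK1 starts the process and a PI3K complex around Beclin 1 marks the membrane. Ubiquitin-like conjugation then attaches ATG8 proteins to the membrane, where cargo receptors bind them and bring in ubiquitinated proteins, damaged organelles or bacteria. TFEB and TFE3 are transcription factors of lysosomal and autophagy genes. In the intestine the pathway is known for its role in Paneth and goblet cell secretion and in the defense against bacteria that enter epithelial cells, and a variant of ATG16L1 is a known risk factor for Crohn's disease. The amount of an mRNA does not report on autophagic flux, since the proteins are regulated to a large extent by modification and turnover.

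The members changed little between the diets, and those that passed the test rose more often than they fell. With edgeR's quasi-likelihood test and Benjamini-Hochberg adjustment over all 15044 genes tested, 11 of the 40 members were higher in FFD mice, 4 were lower and 25 did not pass an adjusted p of 0.05. The share past the threshold was 37.5% of the members, against 36.8% of all genes tested. The share was 27.5% for higher members against 18.2% of all genes, and 10% for lower members against 18.6%. All 40 members passed the filter on low counts. The median log2 fold change of FFD over CD was 0.08 for the members and -0.03 for all genes. In size, the median change was 0.17 on the log2 scale for the members and 0.26 for all genes tested, and 0.23 for the 10931 genes whose mean level lay within the members' range, of which 44.3% passed. No member changed by more than 0.5 on the log2 scale, a size that 3592 genes (23.9%) exceeded.

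**Figure D1:**
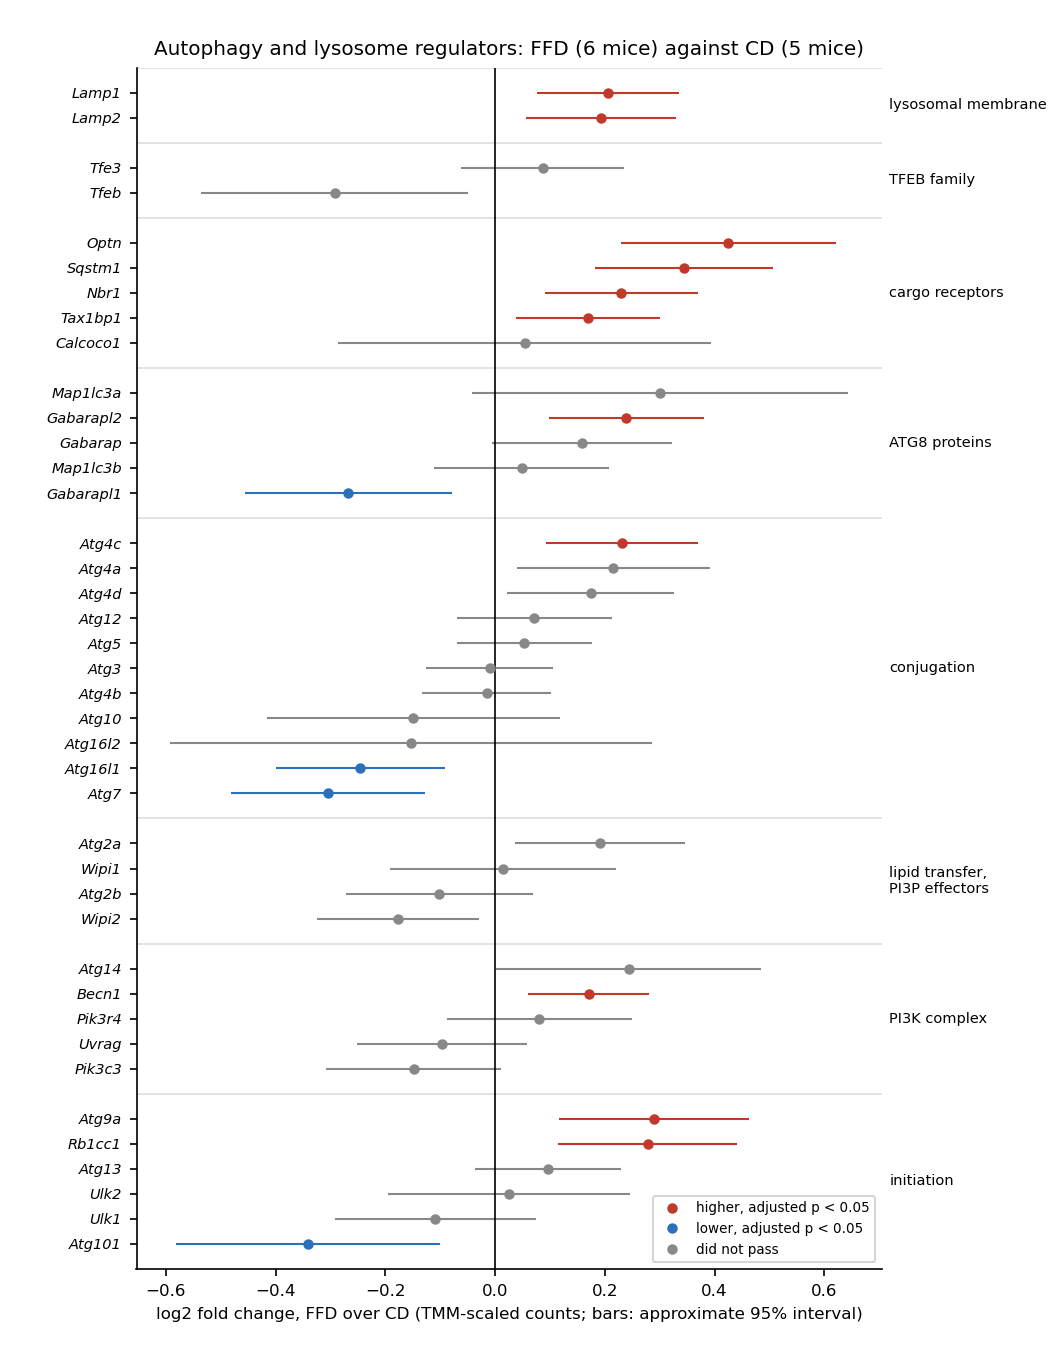
Log2 fold change of FFD over CD mice for each of the 40 members, grouped by role, with points for the estimate and bars for the approximate 95% interval; red marks members higher, blue members lower at an adjusted p under 0.05 and gray members that did not pass. The 11 higher members include 4 of the 5 cargo receptors and both lysosomal membrane proteins, and all 40 estimates lie within 0.5 of 0.

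Which members passed, and the balance of higher and lower calls, depended on how the libraries were scaled. The main fit used TMM factors, which set the scale of each library from the bulk of its genes, and these were 1.03 to 1.08 in CD mice and 0.893 to 1.05 in FFD mice. On that scale the members summed to 2813 to 2960 CPM (the count relative to the scaled size of its library) in CD mice and to 3006 to 3369 CPM in FFD mice. As a share of all counts, with no such factor, the members took 0.300% to 0.311% in CD mice and 0.287% to 0.314% in FFD mice. The diets thus did not overlap in the first measure and overlapped in the second. Without TMM factors, 2 members were higher (Sqstm1 and Optn) and 12 were lower, and the median of all genes moved by -0.15. The split of all called genes moved in the same way, from 49.5% higher with TMM to 25.2% higher without it. The median of the members minus the median of all genes was 0.11 with TMM and 0.11 without it. All 15 members called with TMM had the same sign under all 18 alternatives, and 3 of them, Sqstm1, Optn and Atg7, passed the threshold in every alternative.

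**Figure D2:**
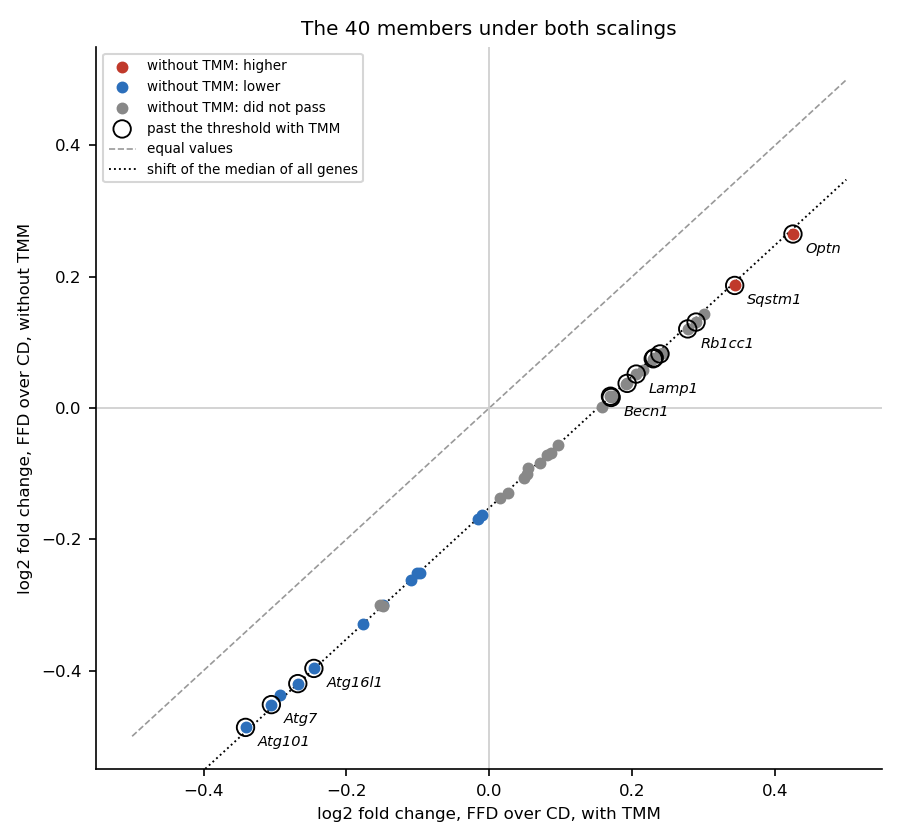
Log2 fold change of FFD over CD mice for the 40 members with TMM factors (horizontal) and without them (vertical); circles mark the 15 members past the threshold with TMM, colors give the call without TMM, the dashed line marks equal values and the dotted line the shift of the median of all genes. The points lie along the dotted line, 0.15 below the dashed line, and only Sqstm1 and Optn are called higher under both scalings.

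Among the 5 cargo receptors, FFD mice had 4 at a higher level and none at a lower level. Optn encodes optineurin, a receptor for ubiquitinated bacteria and mitochondria, and lies on chromosome 2 (GRCm38, 5020642 to 5064051). Its level was 26.7, 23.5, 24.6, 25.9 and 27.2 CPM in the 5 CD mice and had a lowest value of 28.0, a median of 34.6 and a highest value of 39.8 CPM in the 6 FFD mice. Every FFD mouse lay above every CD mouse. Optn differed by 0.43 on the log2 scale with an SE of 0.09 (adjusted p = 0.0039), which was the largest change among the members. Sqstm1 encodes p62, the receptor that gathers ubiquitinated proteins and is itself degraded by autophagy (chromosome 11, 50199366 to 50210827). CD mice had 146, 161, 142, 152 and 156 CPM and FFD mice a lowest value of 160, a median of 195 and a highest value of 210 CPM. Of the 6 FFD mice, 5 lay above all CD mice, and FFD mouse 3 lay within their range. Sqstm1 differed by 0.34 on the log2 scale with an SE of 0.08 (adjusted p = 0.0043).

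Nbr1, a receptor related to p62 in its domains (chromosome 11, 101552149 to 101581951), was at 134, 131, 130, 118 and 125 CPM in CD mice and at 135 to 162 CPM in FFD mice, with a median of 150. The groups did not overlap, although the lowest FFD mouse and the highest CD mouse lay within 1 CPM of each other. Nbr1 differed by 0.23 on the log2 scale (SE 0.06, adjusted p = 0.015). Tax1bp1, which also restrains inflammatory signaling, was the most abundant receptor with 588 ± 30.9 CPM in CD mice and 662 ± 22.01 CPM in FFD mice (mean ± SD). It rose by 0.17 on the log2 scale (adjusted p = 0.043), and this call was lost without any of CD mice 1, 2 and 3 or FFD mice 2, 4 and 5. The call of Tax1bp1 was also lost without TMM, without the filter on low counts and with the replicate number as a block. Calcoco1, a receptor for the endoplasmic reticulum, had 10.97 ± 1.94 and 11.5 ± 2.50 CPM and did not pass (log2 fold change 0.05, approximate 95% interval -0.29 to 0.39).

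Both lysosomal membrane proteins were higher in FFD mice. Lamp1 and Lamp2 encode heavily glycosylated proteins that line the inner face of the lysosomal membrane. Lamp1 (chromosome 8, 13159161 to 13175338) was at 340, 371, 331, 336 and 340 CPM in CD mice and at 370 to 426 CPM in FFD mice, with a median of 396. CD mouse 2 was the highest of its group and lay just above the lowest FFD mouse, which made the groups overlap. The log2 fold change of Lamp1 was 0.21 (SE 0.06, adjusted p = 0.017). Lamp2 (chromosome X) rose from 152 ± 6.95 to 174 ± 12.4 CPM, with a log2 fold change of 0.19 (adjusted p = 0.030), and its groups did not overlap. The call of Lamp2 was lost when FFD mouse 1, 2, 5 or 6 was left out. Both calls were also lost without TMM (log2 fold changes 0.05 for Lamp1 and 0.04 for Lamp2). The same held without the filter on low counts and with the replicate number as a block. The ratio of Lamp1 to Lamp2 was 2.25 in CD mice and 2.28 in FFD mice as a geometric mean.

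TFEB and TFE3 bind the E-box CACGTG, and sites of the extended form TCACGTGA are known from promoters of lysosomal genes. Their own mRNAs did not pass the test in the main fit, and Tfeb passed in 4 of the 18 alternatives. Tfeb was at 14.2, 20.02, 15.5, 18.5 and 18.5 CPM in CD mice and at 11.8 to 16.3 CPM in FFD mice, with a median of 14.4. The log2 fold change of Tfeb was -0.29 (approximate 95% interval -0.54 to -0.05, adjusted p = 0.057), while Tfe3 had 24.8 ± 1.002 and 26.4 ± 2.19 CPM with a log2 fold change of 0.09 (-0.06 to 0.24). Promoter windows of RefSeq (GRCm38.p6), which hold the bases around each annotated start, were at hand for 34 of the 40 members. CACGTG, which reads the same on both strands, was found in the windows of 5 of these 34 genes (14.7%), against 8.09% of the 27025 genes with a window and 11.4% of the tested genes. The 5 genes were Lamp1, Atg3, Atg5, Atg7 and Atg14. The longer TCACGTGA, which contains the E-box, was found in Atg3 alone. A core of the antioxidant response element, TGACNNNGC on either strand, was found in 11.8% of the member genes. Its share was 14.0% of all genes with a window and 16.5% of the tested genes.

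The bases before the start are shown for Lamp1, which had the most E-boxes, and for the 3 members whose calls held in every alternative, each read 5′ to 3′ in the direction of transcription with CACGTG in capitals. The windows are chr8:13158911-13159160 (plus strand) for Lamp1, chr6:114670846-114671095 (plus strand) for Atg7, chr2:5064118-5064367 (minus strand) for Optn and chr11:50210821-50211070 (minus strand) for Sqstm1.
Lamp1: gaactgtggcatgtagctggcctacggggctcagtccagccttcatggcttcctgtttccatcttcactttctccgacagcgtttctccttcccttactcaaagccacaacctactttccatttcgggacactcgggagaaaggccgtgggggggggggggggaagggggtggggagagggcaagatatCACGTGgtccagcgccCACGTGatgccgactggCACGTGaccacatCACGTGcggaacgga
Atg7: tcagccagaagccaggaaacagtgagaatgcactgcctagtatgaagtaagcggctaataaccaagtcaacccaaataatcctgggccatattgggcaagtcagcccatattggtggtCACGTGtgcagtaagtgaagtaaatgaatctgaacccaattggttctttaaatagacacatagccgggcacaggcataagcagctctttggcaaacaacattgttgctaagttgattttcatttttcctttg
Optn: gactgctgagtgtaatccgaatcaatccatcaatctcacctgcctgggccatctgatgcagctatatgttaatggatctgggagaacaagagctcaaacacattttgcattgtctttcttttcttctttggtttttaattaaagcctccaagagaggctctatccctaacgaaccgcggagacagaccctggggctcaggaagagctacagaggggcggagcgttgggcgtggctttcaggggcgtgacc
Sqstm1: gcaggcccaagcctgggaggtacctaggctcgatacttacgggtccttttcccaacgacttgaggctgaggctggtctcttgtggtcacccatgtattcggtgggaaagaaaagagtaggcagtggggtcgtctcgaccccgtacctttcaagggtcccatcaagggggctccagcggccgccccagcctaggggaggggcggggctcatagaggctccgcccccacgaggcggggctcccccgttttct
The Lamp1 stretch holds 4 matches, which begin 61, 45, 28 and 15 bases before the start. That of Atg7 holds 1 match that begins 132 bases before the RefSeq start of its window. This start lies inside the Atg7 gene as annotated in GENCODE, which begins at 114643097, and the bases before 114643097 were not searched. The stretches of Optn and Sqstm1 hold none. Of the 2 genes with matches, Lamp1 was higher and Atg7 was lower in FFD mice.

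Among the 6 members that start autophagy, 2 were higher and 1 was lower. Rb1cc1 encodes FIP200, the scaffold of the ULK1 complex (chromosome 1, 6206197 to 6276648). It was at 67.6, 61.3, 64.5, 60.1 and 61.3 CPM in CD mice and at 66.7 to 87.4 CPM in FFD mice, with a median of 76.7. FFD mice 1 and 4 lay just below CD mouse 1, the highest of its group, and the other 4 FFD mice above it. Rb1cc1 rose by 0.28 on the log2 scale (SE 0.08, adjusted p = 0.013). Atg9a encodes the membrane protein of the vesicles that seed the autophagosome (chromosome 1, 75180860 to 75192196). CD mice had 51.3, 50.8, 49.997, 47.3 and 51.9 CPM and FFD mice 51.5 to 72.7 CPM with a median of 63.1, so that FFD mouse 3 alone lay within the CD range. Atg9a rose by 0.29 on the log2 scale (SE 0.08, adjusted p = 0.014).

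Atg101, a subunit of the ULK1 complex that binds ATG13 (chromosome 15, 101284272 to 101290945), was lower in FFD mice. CD mice had 28.1, 38.7, 31.7, 32.7 and 28.3 CPM and FFD mice 20.1 to 29.9 CPM with a median of 24.8, and 4 of the 6 FFD mice lay below all CD mice. Atg101 fell by 0.34 on the log2 scale (SE 0.11, adjusted p = 0.030), and the call was lost when any of 7 mice was left out, namely CD mice 2, 3 and 4 and FFD mice 2, 4, 5 and 6. It was also lost with the replicate number as a block. The kinase genes themselves did not pass. Ulk1 was at 28.7, 27.4, 26.1, 21.97 and 21.6 CPM in CD mice and at 21.5 to 24.8 CPM in FFD mice, a log2 fold change of -0.11 (-0.29 to 0.07). Ulk2 had a log2 fold change of 0.03 (-0.19 to 0.25) and Atg13 of 0.10 (-0.04 to 0.23), and both were below 0 without TMM (-0.13 and -0.06).

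In the PI3K complex, Becn1 was the single member of 5 past the threshold. It encodes Beclin 1, the subunit through which the lipid kinase is regulated (chromosome 11). Its level was 119 ± 2.66 CPM in CD mice and 134 ± 6.00 CPM in FFD mice with no overlap between them, and the log2 fold change was 0.17 (adjusted p = 0.020). The catalytic subunit Pik3c3 (log2 fold change -0.15), its adaptor Pik3r4 (0.08), and the alternative partners Uvrag (-0.10) and Atg14 (0.24) did not pass, and Pik3r4 was below 0 without TMM (-0.07). Atg14 had an approximate interval of 0.0023 to 0.49 and an adjusted p of 0.10 in the edgeR test. None of the 4 members that act in lipid transfer or bind the lipid made by the kinase passed in the main fit. Of the 18 alternatives, Atg2a passed in 6 and Wipi2 in 3. The lipid transfer proteins had log2 fold changes of 0.19 for Atg2a (adjusted p = 0.052) and -0.10 for Atg2b, and the lipid binding proteins of 0.01 for Wipi1 and -0.18 for Wipi2 (adjusted p = 0.059). Wipi1 was below 0 without TMM (-0.14).

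The conjugation machinery held 1 higher and 2 lower genes among 11. Atg7 encodes the E1-like enzyme that activates both ATG12 and the ATG8 proteins (chromosome 6, 114643097 to 114860614). It was at 31.4, 35.2, 32.9, 31.4 and 28.4 CPM in CD mice and at 23.0 to 29.5 CPM in FFD mice, with a median of 25.6. Of the 6 FFD mice 5 lay below all CD mice, and FFD mouse 3 lay within the CD range. Atg7 fell by 0.31 on the log2 scale (SE 0.08, adjusted p = 0.012). Atg16l1, which places the conjugation complex on the membrane (chromosome 1, 87755870 to 87792428), was at 35.1, 34.8, 32.98, 35.3 and 40.2 CPM in CD mice and at 27.5 to 33.9 CPM in FFD mice, with a median of 29.2. FFD mouse 5 alone lay within the CD range. Atg16l1 fell by 0.25 on the log2 scale (SE 0.07, adjusted p = 0.017), and its call was lost without CD mouse 5 and without the filter on low counts.

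Atg4c, a protease of the family that trims ATG8 proteins and frees them from membranes (chromosome 4, 99193934 to 99259787), was the higher gene of the group. CD mice had 17.8, 18.6, 17.5, 17.2 and 17.8 CPM and FFD mice 19.7 to 22.6 CPM with a median of 20.3, with no overlap. The log2 fold change was 0.23 (SE 0.06, adjusted p = 0.014). Its paralogs Atg4a (0.22, adjusted p = 0.052) and Atg4d (0.17, adjusted p = 0.070) did not pass in the edgeR test, nor did Atg4b (-0.02, approximate 95% interval -0.13 to 0.10). Among the other members of the group, the E2-like enzymes Atg3 (-0.01) and Atg10 (-0.15), the conjugate partners Atg5 (0.05) and Atg12 (0.07) and the paralog Atg16l2 (-0.15) did not pass. Atg16l2 was the least abundant member, at 3.21 ± 0.76 CPM in CD mice and 2.93 ± 0.72 CPM in FFD mice, and its interval ran from -0.59 to 0.29. Atg5 and Atg12 were below 0 without TMM (-0.10 and -0.08).

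The 5 ATG8 proteins did not move together. Gabarapl2, also known as GATE-16, was higher (chromosome 8, 111940703 to 111953612), with 71.4, 83.2, 77.4, 79.2 and 79.3 CPM in CD mice and 79.3 to 98.8 CPM in FFD mice, with a median of 93.4. FFD mouse 3 alone lay within the CD range. Gabarapl2 rose by 0.24 on the log2 scale (SE 0.07, adjusted p = 0.013). Gabarapl1 was lower (chromosome 6, 129533160 to 129542346), with 23.0, 25.2, 24.4, 23.6 and 19.3 CPM in CD mice and 17.0 to 20.996 CPM in FFD mice, with a median of 19.4. Only 3 of the 6 FFD mice lay below all CD mice, since CD mouse 5 was low. The log2 fold change was -0.27 (SE 0.09, adjusted p = 0.029), and the call was lost when any of CD mice 1 to 4 or FFD mice 2, 4 and 5 was left out. It was also lost without the filter on low counts and with the replicate number as a block.

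The other ATG8 genes did not pass. Map1lc3b, which encodes the LC3B protein used as the marker of autophagosomes, was at 113, 145, 140.5, 145 and 134 CPM in CD mice and at 131 to 153 CPM in FFD mice, with a median of 139. Its log2 fold change was 0.05 (approximate 95% interval -0.11 to 0.21) with TMM and -0.11 without it. Map1lc3a had 13.9 ± 2.74 and 17.2 ± 3.77 CPM (log2 fold change 0.30, -0.04 to 0.64), and Gabarap had 233 ± 16.6 and 260 ± 23.6 CPM (0.16, -0.01 to 0.32).

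**Figure D3:**
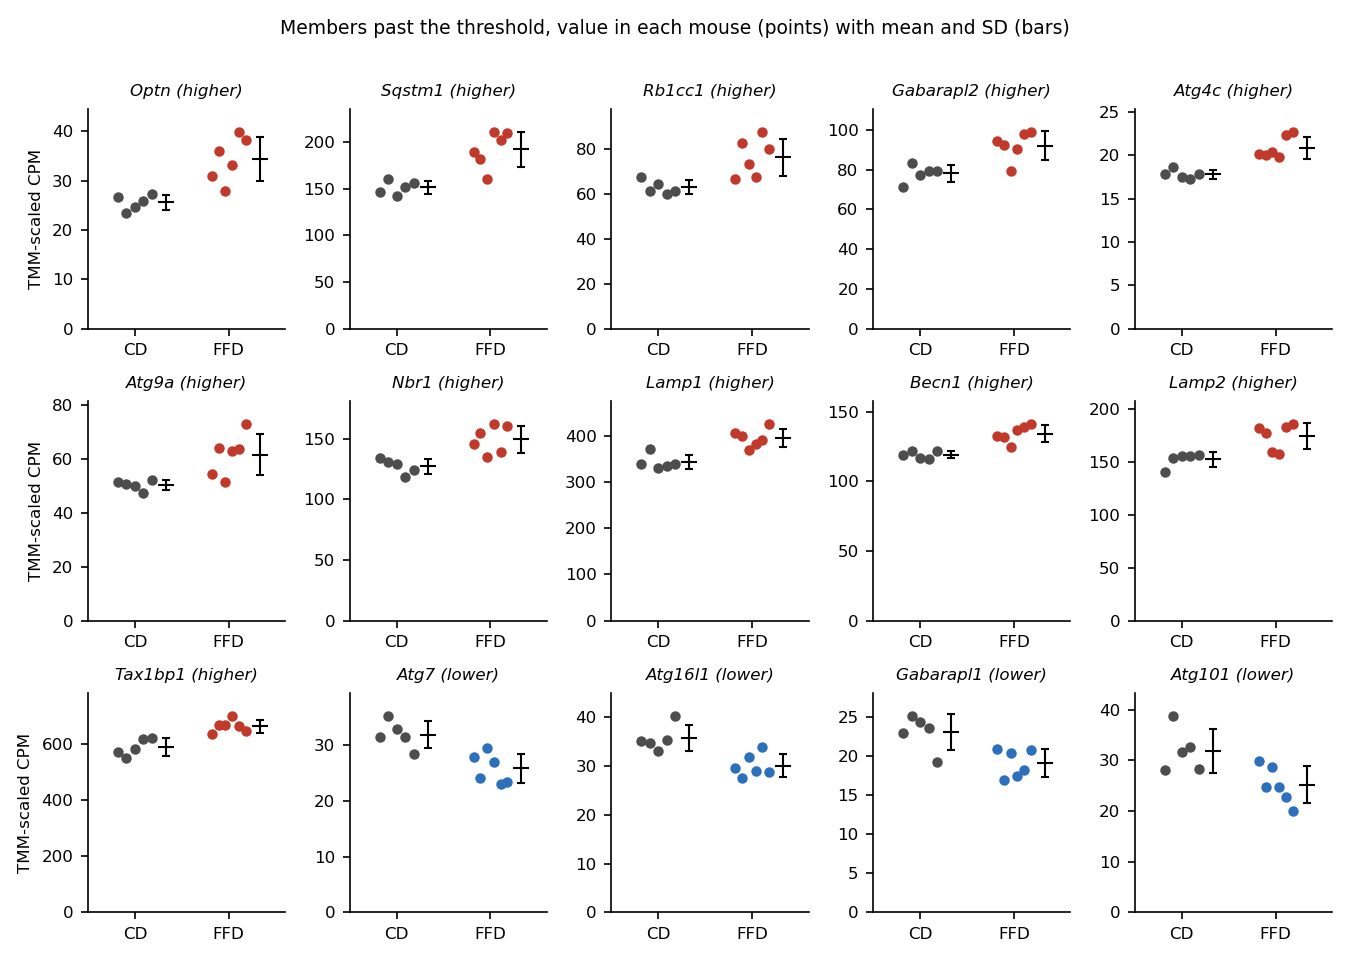
Level in TMM-scaled CPM (vertical axes from 0) of the 15 members past the threshold in each CD mouse (gray points) and FFD mouse (red for higher, blue for lower members), with the mean and SD beside the points. The groups do not overlap in 6 of the 11 higher members (Optn, Atg4c, Nbr1, Becn1, Lamp2 and Tax1bp1) and overlap in all 4 lower ones.

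For 6 of the 40 members (15%), all FFD mice lay on 1 side of all CD mice, against 18.5% of all genes tested. In all of these 6, FFD mice were higher with TMM. Among the 15 called members, FFD mouse 3 was the FFD mouse nearest to the CD mice in 8, FFD mouse 1 in 4, FFD mouse 4 in 2 and FFD mouse 5 in 1. FFD mouse 3 also had the highest TMM factor of its group, 1.05, which lay within the range of the CD mice. Without FFD mouse 3, all 15 calls were kept.

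**Figure D4:**
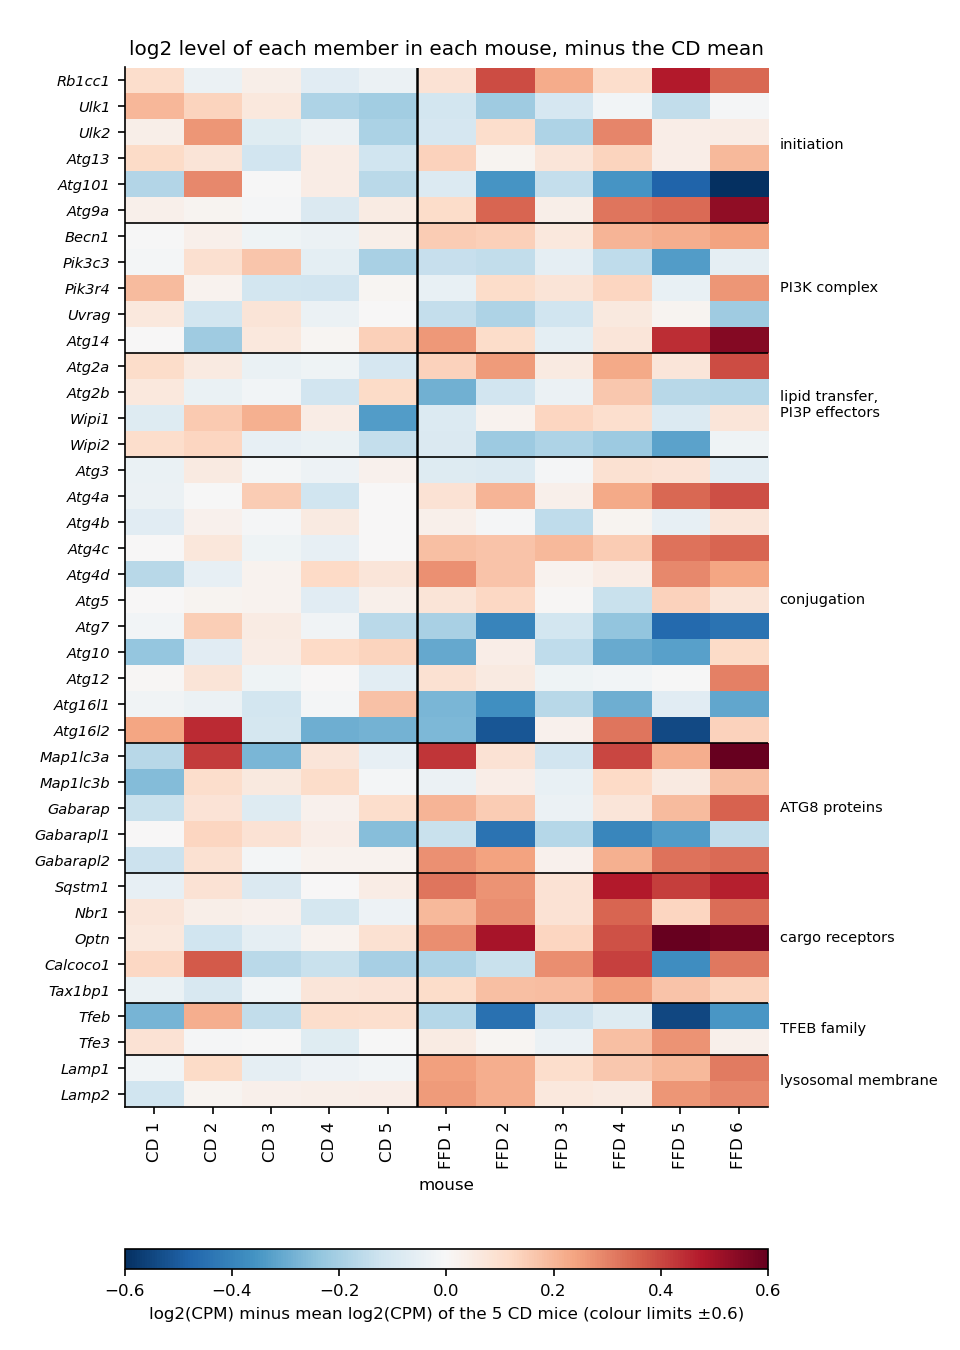
Log2 CPM of each of the 40 members (rows, grouped by role) in each of the 11 mice (columns), minus the mean of the 5 CD mice; red is above and blue below that mean, and colors saturate at 0.6. The rows of Sqstm1, Optn, Nbr1, Lamp1 and Lamp2 are red in all 6 FFD mice, Atg7 and Atg16l1 are blue, and FFD mouse 3 is paler than the other FFD mice in Sqstm1 and Optn.

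Related members were also compared as ratios within each mouse, which do not depend on the scale of the library. With a two-sided exact permutation test over all 462 assignments of the diets, whose smallest possible p is 0.0022, none of 10 ratios passed after Benjamini-Hochberg adjustment, and 4 had an unadjusted p under 0.05. The log2 ratio of Gabarapl1 to Gabarap was -3.34 ± 0.21 in CD mice and -3.76 ± 0.16 in FFD mice (exact permutation p = 0.011, adjusted p = 0.11). Without CD mouse 5, the lowest of its group and flagged below as far from it, this ratio passed the same test (adjusted p = 0.048, difference -0.51). That test has fewer assignments, so its smallest possible p is larger and the adjusted value lies near its floor. The log2 ratio of Tfeb to Tfe3 was -0.53 ± 0.25 and -0.90 ± 0.25 (exact permutation p = 0.041), that of Atg2a to Atg2b was -0.10 ± 0.13 and 0.19 ± 0.20 (p = 0.024) and that of Gabarapl2 to Gabarap was -1.58 ± 0.05 and -1.50 ± 0.06 (p = 0.043), each with an adjusted p of 0.11. The mice of the diets overlapped in all 10 ratios. The remaining ratios, between Wipi1 and Wipi2, Map1lc3b and Map1lc3a, Sqstm1 and Nbr1, Ulk1 and Ulk2, Atg16l1 and Atg16l2, and Lamp1 and Lamp2, had adjusted p values of 0.16 to 0.77 in the same exact test.

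Per kilobase of annotated exon, the members spanned a wide range of levels in CD mice. Lamp1 with 128 ± 5.94 and Gabarap with 126.5 ± 8.99 CPM per kilobase were the highest and did not differ beyond their spread. Tax1bp1 (58.9 ± 3.10), Sqstm1 (45.1 ± 2.19) and Gabarapl2 (33.6 ± 1.84) followed, each apart from the next by more than their SDs, and then Atg5 (21.2 ± 0.55) and Atg101 (19.99 ± 2.70), which overlapped. Atg16l2 (0.38 ± 0.09), Calcoco1 (1.92 ± 0.34) and Uvrag (2.18 ± 0.12) were the lowest. The exon length was that of all annotated exons together, so that a gene with long alternative ends is set lower than its main transcript.

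Some members share sequence with other genes, and how the authors counted such reads was not given. Of the 40 members, 12 had more than 5% of their 59-base stretches, the read length, in transcripts of another gene. Among the called members, this share was 35.6% for Becn1, 29.8% for Atg9a, 22.2% for Gabarapl1, 15.2% for Sqstm1, 11.2% for Gabarapl2, 6.07% for Rb1cc1 and 5.24% for Lamp1. Atg7, Atg16l1, Atg101 and Nbr1 shared none. Exons of 14 members overlapped those of another gene. Mrnip, which overlaps Sqstm1, had 413 counts over all mice and a log2 fold change of -0.23 (adjusted p = 0.50), and Cntd1, which overlaps Becn1, had 519 counts and -0.33 (adjusted p = 0.43). Grtp1, which overlaps Lamp1, had 21386 counts and was itself higher in FFD mice (log2 fold change 0.31, adjusted p = 0.0045). Their part in the values of these members was not tested.

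Other genes of the pathway were taken from lists. Over all genes tested, 18.2% were higher and 18.6% lower in FFD mice. Of 43 lysosomal hydrolases, 21 (48.8%) were higher and 2 (4.65%) lower in FFD mice, with a median log2 fold change of 0.21. Lipa, the acid lipase that hydrolyzes cholesteryl esters, rose from 17.3 ± 3.04 to 36.8 ± 6.65 CPM (log2 fold change 1.09, adjusted p = 0.00086). Ctss, a cysteine protease also known for antigen processing, rose by 0.77 on the log2 scale. Ctsh, a protease, and Sgsh, a sulfatase, were the 2 that fell, with log2 fold changes of -0.40 and -0.25. Without TMM, 12 hydrolases were higher and 9 lower. Of 19 subunits of the vacuolar ATPase, which acidifies the lysosome, 8 (42.1%) were higher and 0 lower. They were led by Atp6v0a1 (0.63), Atp6v1b2 (0.37) and Atp6v0d1 (0.30), and without TMM 2 subunits were higher and 4 lower.

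Of 30 other autophagy factors, 11 (36.7%) were higher and 2 (6.67%) lower, with a median of 0.15. The shares of all genes tested were 18.2% and 18.6%. Plekhm1, an adaptor for the fusion of autophagosomes with lysosomes, rose from 63.6 ± 9.85 to 115 ± 26.4 CPM (log2 fold change 0.86, adjusted p = 0.0020), and Rab7, the GTPase of late endosomes, rose by 0.30. Sh3glb1, a partner of the Beclin 1 complex, rose by 0.23 on the log2 scale. Atg9b, the paralog of Atg9a, fell (-1.34) at a level under 1 CPM, and Wdr45b, a WIPI protein, fell by 0.16 on the log2 scale. Without TMM, 1 of these factors was higher. Of 17 other lysosomal membrane proteins, 3 (17.6%) were higher, near the 18.2% of all genes tested, and 0 were lower. The higher ones were the cholesterol transporter Npc1 (0.34), Ctns, the cystine transporter (0.25) and Laptm4a (0.20). None of the 17 was higher without TMM.

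Of 34 mTORC1 and AMPK regulators, which act upstream of ULK1, 2 were higher and 2 lower, with a median of -0.05. Each count was 5.88% of the list, against 18.2% higher and 18.6% lower of all genes tested. The higher genes were the AMPK subunits Prkab1 (127 ± 14.7 to 186 ± 26.8 CPM, log2 fold change 0.55, adjusted p = 0.0027) and Prkaa2 (0.35, adjusted p = 0.0069). The lower genes were Akt1s1, which encodes the mTORC1 inhibitor PRAS40 (67.5 ± 0.98 to 51.2 ± 4.97 CPM, -0.40, adjusted p = 0.0015), and Flcn, which encodes folliculin (-0.33, adjusted p = 0.042). Without TMM, 1 was higher and 13 were lower.

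**Figure D5:**
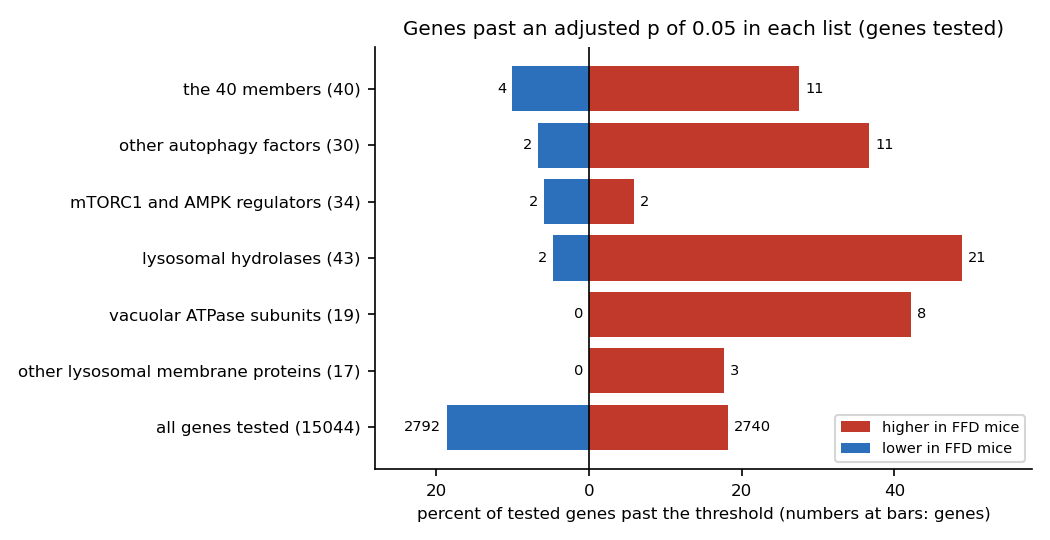
Percent of the tested genes of each list that passed an adjusted p of 0.05, higher in FFD mice to the right and lower to the left, with the numbers of genes at the bars and the genes tested in parentheses. Lysosomal hydrolases have 21 higher and 2 lower genes of 43, mTORC1 and AMPK regulators 2 and 2 of 34, and all genes 2740 and 2792 of 15044.

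The cell preparations also differed between the diets in markers of cell state and type. Epithelial markers were abundant in every mouse, with a summed level of 10921 to 13061 CPM in CD mice and 12543 to 15762 CPM in FFD mice. Of these 8 markers, 6 were higher in FFD mice and 0 lower, with a median log2 fold change of 0.29. Of 10 markers of absorptive colonocytes, 7 were higher in FFD mice, and the 10 summed to 8765 to 12483 CPM against 14565 to 26430 CPM. Lypd8 (3933 to 8904 CPM) and Ceacam1 (3514 to 6405 CPM) made up most of the sum. Car1 (log2 fold change 0.07), Aqp8 (-0.01) and Guca2a (0.61) did not pass. Of 12 markers of dividing cells, 9 were lower, with sums of 1121 to 1517 CPM against 458 to 1068 CPM. Of 13 tested markers of macrophages and monocytes 3 were higher, with sums of 88.8 to 129 CPM against 131 to 163 CPM. These 3 were Cd14 (87.2 to 114 CPM), which made up most of the sum, Mrc1 (1.40 to 4.11 CPM, log2 fold change 1.54) and C1qb (0.89 to 1.62 CPM, 0.84). The other 10 did not pass. Among them Lyz2 (7.83 to 10.6 CPM) and Csf1r (2.01 to 2.49 CPM) were the most abundant, and the rest were below 2 CPM on average in both diets. Of these 10, Adgre1 (log2 fold change -0.42) and Cx3cr1 (-0.16) lay below 0. C1qa, C1qc, Csf1r, Lyz2, Tyrobp, Fcer1g, Cd68 and Ccr2 lay above 0. The 12 neutrophil markers summed to 26.7 to 73.03 CPM against 73.7 to 286 CPM, and 3 of the 5 tested were higher. These were Ly6g (33.5 to 153 CPM) and Ltf (4.20 to 26.7 CPM), which made up most of the sum, and S100a8 (0.88 to 2.46 CPM, log2 fold change 1.51). S100a9 (1.42 to 2.59 CPM, 0.88) and Csf3r (0.70 to 0.79 CPM, 0.20) did not pass. The other neutrophil markers were too low to test, at 0.31 CPM or less on average in either diet. Of these, the means of Cxcr2, Elane, Camp and Ngp were lower in FFD mice and those of Mpo, Retnlg and Mmp8 higher. Markers of T and B cells summed to 1.64 to 2.41 CPM against 1.61 to 2.46 CPM. Those of fibroblasts, muscle and endothelium summed to 10.4 to 12.1 CPM against 9.57 to 12.7 CPM. Only 2 of the 9 T and B cell markers and 4 of the 8 others were high enough to be tested, and none of those passed the threshold. No marker was at 0 in all mice. The part of these differences in the members' values was not tested, and in such bulk samples fewer cells of a type and less RNA per cell cannot be told apart.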

How the data were processed

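RNA of isolated colonic epithelial cells from 5 CD and 6 FFD mice was measured, with a separate library for each mouse. The authors detached the cells with DTT and EDTA, cleaned them over Percoll, enriched poly(A) RNA, mapped single reads to GRCm38 in the CLC Workbench and deposited raw counts of reads per gene. The submitters' notes list FastQC, R 3.5.1 and DESeq2 1.22.2. The annotation release, the use of strand and the handling of reads that match several genes were not given in the sources used here.

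The counts were tested for diet with the quasi-likelihood test of edgeR 4.0.16 (R 4.3.3) after filterByExpr (a minimum count of 10 and a minimum total of 15) and TMM scaling. P-values were adjusted by Benjamini-Hochberg over the 15044 genes left of 52550, with a threshold of 0.05. Levels are TMM-scaled CPM, fold changes are FFD over CD and 95% intervals are approximate. Ratios within a mouse used a pseudocount of 0.5 and an exact permutation test. The code was tested on simulated data. Within each diet, the chi-square per degree of freedom between any 2 libraries was 11.1 or more, so none was a duplicate. The 8 members with the smallest p in each direction (4 in the lower direction) were given with values per mouse, other called members as means, members that did not pass by fold change, and up to 3 called genes per list and direction. A gene that this rule selects is not reported here, though it remains in the counts. Cell type markers and genes that overlap members were named outside this rule, after their values were seen. The members and lists were chosen with earlier results of these data known. Alternatives were DESeq2 1.42.0, limma-voom (limma 3.58.1), RLE factors, no TMM, no filter, a strict filter of 1 CPM in every mouse, a replicate block, a pseudocount of 1 and leaving out each mouse. Coordinates came from GENCODE M21, with 40 of 40 members matched. All CD titles carry the number 1 and all FFD titles the number 2. If this marks a cage or batch, it cannot be told apart from the diet. Shared cages were not given, so p-values measure only the spread between these mice.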

Additional observations from a re-analysis of the deposited data

Results flagged for a closer look

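Of 100 groups of mice searched (40 members and 10 ratios in each diet), 5 held a mouse whose gap to the nearest other mouse of its diet, as a share of the range of the group, exceeded Dixon's 95% critical value. By its construction this limit marks about 1 in 20 groups by chance alone, and these groups share mice and genes, so no rate was tested. Pik3c3 was at 34.0 CPM in FFD mouse 5 and at 38.7 to 41.4 CPM in the other FFD mice. Atg12 was at 55.04 CPM in FFD mouse 6 and at 43.9 to 47.4 CPM in the others. Lamp1 was at 371 CPM in CD mouse 2 and at 331 to 340 CPM in the other CD mice. Lamp2 was at 140 CPM in CD mouse 1, against 154 to 157 CPM in the other CD mice. The log2 ratio of Gabarapl1 to Gabarap was -3.70 in CD mouse 5 and -3.32 to -3.17 in the other CD mice.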

How the results depend on the processing

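Of the 15 called members, DESeq2, RLE factors, the strict filter and limma-voom kept all 15, no filter kept 8, no TMM kept 6 and the replicate block kept 4, and all 15 kept their sign in each; the causes were not tested. Members higher and lower numbered 2 and 12 without TMM and 6 and 2 without the filter. They numbered 14 and 4 with DESeq2, and 13 and 4 both with RLE factors and with the strict filter. Of the 25 members that did not pass in the main fit, 14 passed in at least 1 alternative. Deviations of same-numbered mice of the diets correlated at -0.34 to 0.33, above 0.1 in 2 of 5 pairs, and those of other pairs at -0.47 to 0.25. The labels name no pairing, and 5 values of mixed sign cannot decide whether the numbers pair the mice. FFD mouse 6 has no partner. The replicate block left 2 members higher, 4 other autophagy factors higher and 1 lower, 0 hydrolases lower and 1 other lysosomal membrane protein higher, and Calcoco1 turned to -0.00579.

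Without TMM, the median of the members was -0.078, and log2 fold changes turned negative for Ulk2 (-0.13), Atg13 (-0.056), Pik3r4 (-0.072), Wipi1 (-0.14), Atg5 (-0.10), Atg12 (-0.083), Map1lc3b (-0.11), Calcoco1 (-0.091) and Tfe3 (-0.069), none of which passed in the main fit. It left 12 hydrolases higher and 9 lower, 1 mTORC1 and AMPK regulator higher and 13 lower, 1 other autophagy factor higher, 0 other lysosomal membrane proteins higher and 2 lower, and 2 ATPase subunits higher and 4 lower. Without the filter, 1 hydrolase and 1 mTORC1 and AMPK regulator were lower, 7 other autophagy factors were higher and 1 lower, and 1 other lysosomal membrane protein was higher. RLE factors left 1 hydrolase, 1 mTORC1 and AMPK regulator and 1 other autophagy factor lower, and turned Atg3 to 0.00809 and Atg4b to 0.00298. DESeq2 gave 1 other autophagy factor lower, 5 other lysosomal membrane proteins higher, Atg3 at 0.00542 and Atg4b at 0.000662. The strict filter and limma-voom each left 1 other autophagy factor lower.

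With each mouse left out in turn, 9 to 16 members were higher and 2 to 4 lower. In the same fits, 0 to 2 hydrolases and 1 to 4 mTORC1 and AMPK regulators were lower. Other autophagy factors numbered 6 to 13 higher and 0 to 2 lower, and 1 to 5 other lysosomal membrane proteins were higher. The number of lower members was 2 without CD mouse 2, 3 or 4 or FFD mouse 2 or 5. Log2 fold changes crossed 0 for Ulk2 (-0.024 to 0.11), Wipi1 (-0.043 to 0.080), Atg3 (-0.029 to 0.017), Atg4b (-0.033 to 0.024) and Calcoco1 (-0.013 to 0.17), as did the differences of the log2 ratios Atg16l1 to Atg16l2 (-0.23 to 0.00288) and Lamp1 to Lamp2 (-0.00601 to 0.041).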
